A study of Homo sapiens with 3 samples.

Results

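The genes described here encode the proteins of the cytosolic ribosome. They were taken by name from the deposited count table: protein-coding rows off chromosome Y named RPL or RPS with a number, together with RPLP0, RPLP1, RPLP2 and RPSA, and without the RPS6K kinases. This gave 85 of 21726 rows, 52 with large subunit names (RPL) and 33 with small subunit names (RPS). The series compared 3 lines of PC3-Luc, a human cell line from a prostate cancer bone metastasis that carries a luciferase gene delivered in pMSCV-luc. A control hairpin line (shCtrl) was set beside 2 knockdown lines, sh718 and sh720, whose short hairpins target CTHRC1, a secreted glycoprotein. All 3 lines therefore carry the luciferase vector and a hairpin, and were grown for 24 h before RNA was taken. Each line has 3 libraries of single 75-base reads. The sources used here do not say whether these were separate cultures, so every p-value measures only the spread between libraries, and each hairpin is represented by 1 line.

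The ribosome builds proteins from amino acids as it reads mRNA. Its small subunit decodes the message and its large subunit joins the amino acids and passes the growing chain out through a tunnel. Nearly every ribosomal protein is needed in equal number, and dividing cancer cells spend much of their transcription on these genes. Most of their mRNAs begin with a C followed by an unbroken run of pyrimidines, the terminal oligopyrimidine (TOP) tract, through which mTORC1 and LARP1 control how they are translated and stored.

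The starts of the genes on which the results turn are shown because that tract is the feature the family shares. Each line gives 30 bases in the 5′ to 3′ direction from RefSeq (GRCh38.p14), 10 before the listed start and 20 from it, with the tract in capitals. RPS24 (chr10:78033853-78033882, plus strand), RPL29 (chr3:51995876-51995905, minus), RPSA (chr3:39406710-39406739, plus) and RPS25 (chr11:119018324-119018353, minus) were lower in both hairpin lines. RPL14 (chr3:40457329-40457358, plus) was lower in sh718, and RPS14 (chr5:150449720-150449749, minus) and RPL10 (chrX:154398367-154398396, plus) were higher there. RPL34 (chr4:108620566-108620595, plus) moved in opposite directions, and RPL36A (chrX:101391001-101391030, plus) and RPL41 (chr12:56116623-56116652, plus) were called higher in sh720, a call that RPL36A lost when its pseudogene copies were added (log2 -0.10, adjusted p 0.775 by edgeR). RPL4 (chr15:66504836-66504865, minus), RPS15 (chr19:1438386-1438415, plus) and RPS4X (chrX:72277229-72277258, minus) changed in sh718 and have no tract at the listed start, so nothing is in capitals.
RPS24: aatcgtggttCTCTTTTCCTCCTTggctgt
RPL29: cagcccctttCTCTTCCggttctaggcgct
RPSA: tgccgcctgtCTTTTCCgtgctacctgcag
RPS25: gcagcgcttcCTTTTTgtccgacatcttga
RPL14: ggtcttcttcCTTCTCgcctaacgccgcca
RPS14: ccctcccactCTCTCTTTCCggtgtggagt
RPL10: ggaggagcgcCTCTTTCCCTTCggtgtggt
RPL34: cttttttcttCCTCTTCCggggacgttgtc
RPL36A: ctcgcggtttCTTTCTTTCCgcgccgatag
RPL41: cttcgcctttCTCTCggccttagcgccatt
RPL4: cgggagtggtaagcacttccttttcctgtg
RPS15: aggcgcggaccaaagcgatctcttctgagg
RPS4X: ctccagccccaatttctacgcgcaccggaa

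RefSeq starts were found for 67 of the 85 genes, with 83 starts in all. A tract, taken as a C at the start followed by at least 4 bases that are each C or T, was present at 47 of the 83 starts (56.6%). Of 16381 starts of other protein-coding genes in the count table, 4.72% had one. The tracts ran from 5 to 19 bases with a median of 8, and RPL39 had the longest. Around the starts, from 250 bases before to 50 after and on both strands, the ETS motif CCGGAAG was in 33.7% of the windows of ribosomal protein genes and in 15.3% of the others. The SP1 motif GGGCGG was in 54.2% against 63.7%, the YY1 motif AAGATGGCG in 7.23% against 3.06%, the E-box CACGTG in 6.02% against 8.93%, and TATAAA in 7.23% against 7.02%. These motifs were searched separately and may overlap.

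Library totals ran from 883663 to 1108960 counts. CTHRC1 itself was at 88, 117 and 126 counts in the control libraries, 2, 2 and 1 in sh718, and 18, 19 and 10 in sh720. All 6 of the epithelial and PC3 markers checked were detected, while the prostate luminal genes KLK3, KLK2 and FOLH1 were at 0. Of the leukocyte markers 2 of 5 had a count and CD3E and LYZ were among those at 0. Of the fibroblast markers 4 of 6 had one, with COL1A2 and DCN at 0. The 4 endothelial markers summed to 24.4 to 26.7 CPM (counts scaled to a common library size) in control, 53.2 to 61.8 in sh718 and 13.2 to 31.6 in sh720. Of these 4, PECAM1 and KDR had counts, CDH5 and VWF were at 0, and their part in the results was not tested. In bulk RNA, fewer cells of a type and less RNA per cell cannot be told apart.

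Ribosomal protein genes took a smaller share of the counts in sh720 than in the other lines. The 85 genes held 11.6%, 11.6% and 11.1% of the counts in control libraries 1 to 3, 11.2%, 11.8% and 11.3% in sh718, and 10.7%, 10.7% and 10.5% in sh720. Every sh720 library lay below every control and sh718 library, and control and sh718 overlapped. Large subunit names held 6.04% to 6.32% in control, 6.07% to 6.40% in sh718 and 5.83% to 5.95% in sh720. Small subunit names held 5.03% to 5.30%, 5.12% to 5.41% and 4.67% to 4.79%. Transcripts of the mitochondrial genome varied more than that, between 11.96% and 16.4% of a library. With them left out of the total, the shares were 13.3% to 13.6% in control, 13.2% to 13.5% in sh718 and 11.9% to 12.7% in sh720.

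**Figure D1:**
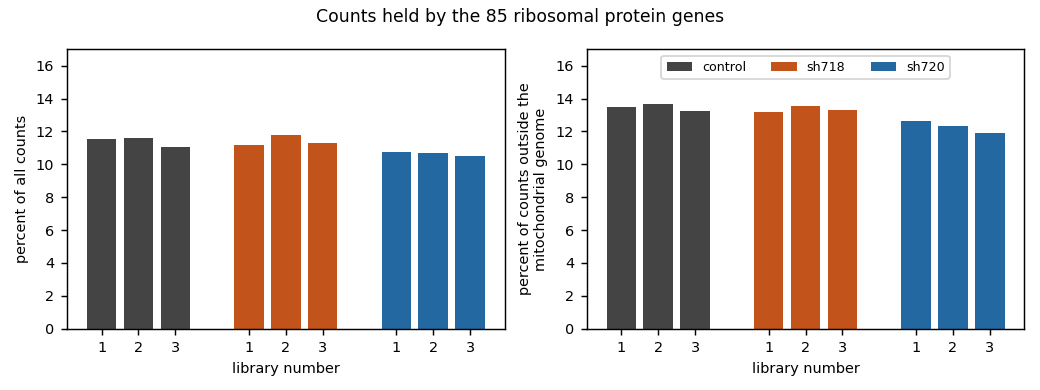
Percent of each library's counts held by the 85 ribosomal protein genes, of all counts (left) and of counts outside the mitochondrial genome (right), with 1 bar per library. On both scales the 3 sh720 bars, 10.5% to 10.7% on the left, are below all control and sh718 bars.

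Levels were compared between genes per kilobase of the union of annotated exons, on the scale of CPM after TMM scaling. Of the 85 genes, 82 had the 60 counts over 9 libraries needed for testing, and their control levels had a median of 351 CPM per kb. RPS12 was the highest at 2387 ± 45.1 (SD, n = 3), and other high levels were RPS21 at 1965 ± 97.4, RPL8 at 1855 ± 21.4 and RPL13A at 1423 ± 38.0. RPS21 and RPL8 did not differ beyond their spread, while RPS12 and RPL13A stood apart from both. The lowest were RPL36A at 1.15 ± 0.57, RPS27L at 7.90 ± 0.62, RPL22L1 at 23.6 ± 6.63, RPL7L1 at 26.6 ± 0.53 and RPS15A at 31.4 ± 0.79. RPL22L1 and RPL7L1 did not differ beyond their spread.

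The order depends on which length is used. Per kilobase of the shortest principal coding transcript the median was 1554, and RPS24 led with 12075. The count minimum was missed by 3 genes, among them RPL17 and RPL3L with 2 and 6 counts over all 9 libraries. RPL3L is a form made in heart and skeletal muscle. RPL17 encodes a core subunit, and 65.6% of its 75-base windows, the length of a read, occur also in a readthrough transcript and pseudogenes.

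Sharing of sequence with copies runs through the whole family. The annotation (GENCODE v29 of GRCh38) names 1144 pseudogenes after 77 of the 85 genes, with up to 91 for a single gene, RPL23A. A median of 11.8% of the 75-base windows of a gene's principal transcripts occurred in other genes, 14 genes exceeded 50%, and 16 shared none. The sources used here do not give how reads that match several places were counted, so levels of genes with many shared windows are uncertain. Whether strand was used is not given either, and 30 of the 85 genes overlap a gene on the other strand, among them RPS25, RPL23A, RPL4, RPL30, RPL10 and RPL18.

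In the sh718 line, ribosomal protein genes moved both ways. By edgeR's quasi-likelihood test with Benjamini-Hochberg adjustment over all 9556 genes tested, with a call at an adjusted p under 0.05, 21 of 82 rose and 20 fell against control. Over all genes tested 9.56% were called higher and 10.8% lower. The ribosomal protein genes are abundant, and abundant genes are called more easily. Of the 664 genes with at least 2000 counts, 29.1% were called higher and 22% lower, beside 28.6% and 27.1% of the 70 ribosomal protein genes with that depth. Those 664 include the 70, and they share the count minimum only, not the same depth. The median change was 0.04 on the log2 scale in the ribosomal protein genes and 0.05 in those 664.

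**Figure D2:**
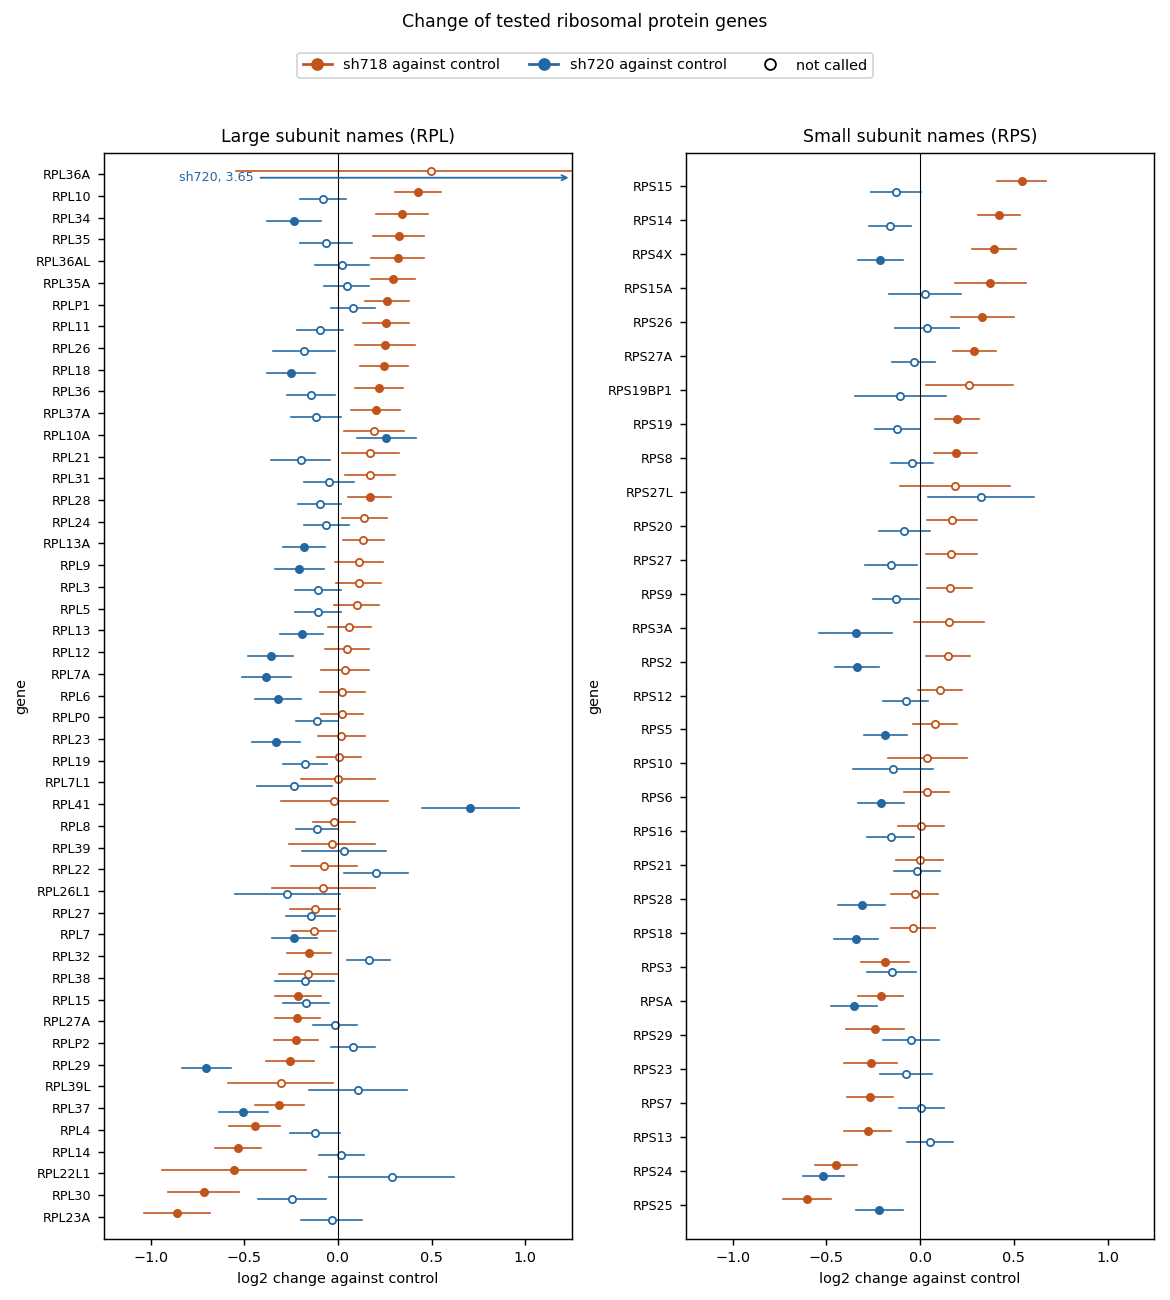
Log2 change against control of 80 of the 82 tested genes in sh718 (orange) and sh720 (blue), with large subunit names on the left and small subunit names on the right, ordered by the sh718 change. Bars are 95% intervals and open circles missed the call. Orange points spread to both sides of 0 while most blue points lie slightly below it, and RPL36A in sh720, at 3.65, is marked by an arrow because it lies off the axis.

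Genes of the large subunit gave the deepest falls in sh718. RPL23A, which sits at the mouth of the exit tunnel where the signal recognition particle docks, was at 409, 418 and 379 CPM in control, 218, 223 and 223 in sh718, and 399, 417 and 362 in sh720. The sh718 libraries stood well below the others, which overlapped. Its log2 change in sh718 was -0.86 (SE 0.09, adjusted p 2.72e-12), a 1.81-fold fall. RPL4, whose loop narrows the tunnel, was at 915, 869 and 869.7 CPM in control, 656, 694 and 598 in sh718, and 817, 849 and 776 in sh720, for a log2 change of -0.45 in sh718 (SE 0.07, adjusted p 4.96e-07). RPL14 went from a mean of 1858 ± 71.7 CPM (SD, n = 3) to 1284 ± 70.9 (log2 -0.53, SE 0.06, adjusted p 1.78e-10) and was at 1881 ± 101 in sh720. RPL30 fell by 0.72 (SE 0.09, adjusted p 1.15e-08), and RPL37 by 0.31.

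Among small subunit genes, RPS25 and RPS24 fell furthest in sh718. RPS25, which viral internal ribosome entry sites need for initiation, was at 1492, 1562 and 1381 CPM in control and 909, 1024 and 985 in sh718 (log2 -0.60, SE 0.06, adjusted p 1.31e-11). The groups did not overlap. The small subunit genes RPS13, RPS7, RPS23, RPS29, RPSA and RPS3 fell by 0.28 to 0.19, and the large subunit genes RPL29, RPLP2, RPL27A, RPL15 and RPL32 by 0.26 to 0.15.

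The rises in sh718 were smaller in size. RPS15, needed for late maturation and export of the small subunit, was at 795, 732 and 741 CPM in control, 1103, 1133 and 1067 in sh718, and 723, 699 and 651 in sh720. Each sh718 library was above all others, and the log2 change was 0.54 (SE 0.07, adjusted p 7.6e-10), a 1.46-fold rise. RPL10, which joins the large subunit at the last cytoplasmic step, was at 1203, 1360.0 and 1216 CPM in control and 1619, 1733 and 1718 in sh718 (log2 0.43, SE 0.06, adjusted p 1.33e-07). RPS14, the small subunit gene lost in the 5q- syndrome of the bone marrow, was at 2955, 3053 and 3029.9 CPM in control and 3893, 4225 and 3986 in sh718 (log2 0.42, SE 0.06, adjusted p 1.32e-08). For both genes the lowest sh718 library was above the highest control library. Further rises were those of RPS4X, RPS15A, RPL34 and RPL35, with log2 changes of 0.39, 0.37, 0.34 and 0.32.

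**Figure D3:**
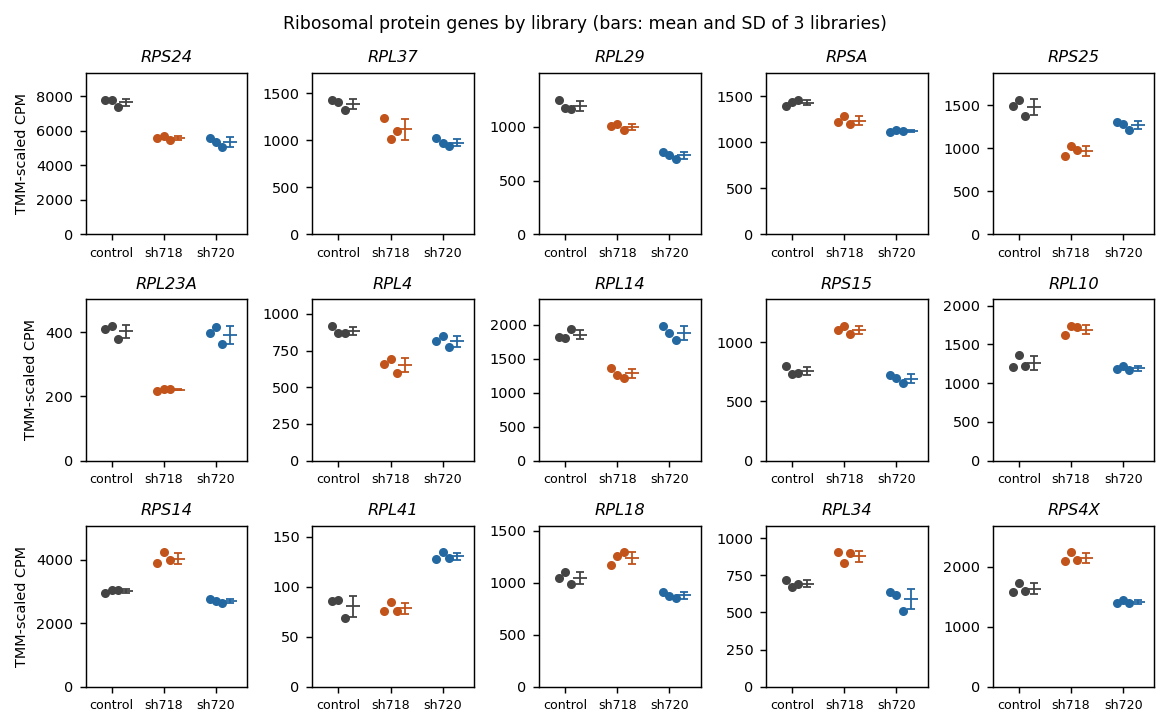
TMM-scaled CPM of 15 ribosomal protein genes in each of the 9 libraries, with the mean and SD of the 3 libraries of a line beside the points and every axis starting at 0. RPL23A is about 220 CPM in sh718 and 362 to 418 elsewhere, RPS24 is low in both hairpin lines, and RPL18, RPL34 and RPS4X are high in sh718 and low in sh720.

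Of the 20 falls in sh718, 10 lay in chromosome stretches whose other genes were also lower. For each gene the median log2 change was taken over the other tested genes within 5 Mb on either side, a median of 48.5 genes. For 11 of the 82 genes this neighbour median was -0.3 or lower, and 10 of these 11 were called lower and none higher. Over all genes tested 10.8% were called lower, and 22% at 2000 counts or more. The share called lower among all genes in such stretches is not given here. The 11 are not all separate cases, because RPL14 and RPSA lie close together and share neighbours. They were RPL14 (-0.48), RPL15, RPSA (-0.48), RPL29 (-0.38) and RPL32 on chromosome 3, RPS13 (-0.57) and RPL27A on chromosome 11, RPS24 (-0.54) on chromosome 10, RPL37 (-0.47) on chromosome 5, and RPS7 on chromosome 2. RPL31, also on chromosome 2, was the exception at 0.17 and was not called. Elsewhere, 10 of 71 genes were called lower and all 21 rises were found. Across the 82 genes, change and neighbour median were correlated with r = 0.516 (Pearson) and rho = 0.455 (Spearman), which only describes values taken from the same libraries.

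Some falls in sh718 had no such setting. The neighbours of RPL23A had a median of 0.12 and those of RPL4 0.02, while RPL30 and RPS25 lay between, at -0.20 and -0.26. What share of any change the neighbourhood accounts for was not tested. In sh720 only RPS24 (-0.58) and RPL29 (-0.40) had neighbour medians at or below -0.3, and both were called lower, beside 20 of the 80 other genes. There, 3.42% of all genes tested were called lower, and 16.1% at 2000 counts or more.

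**Figure D4:**
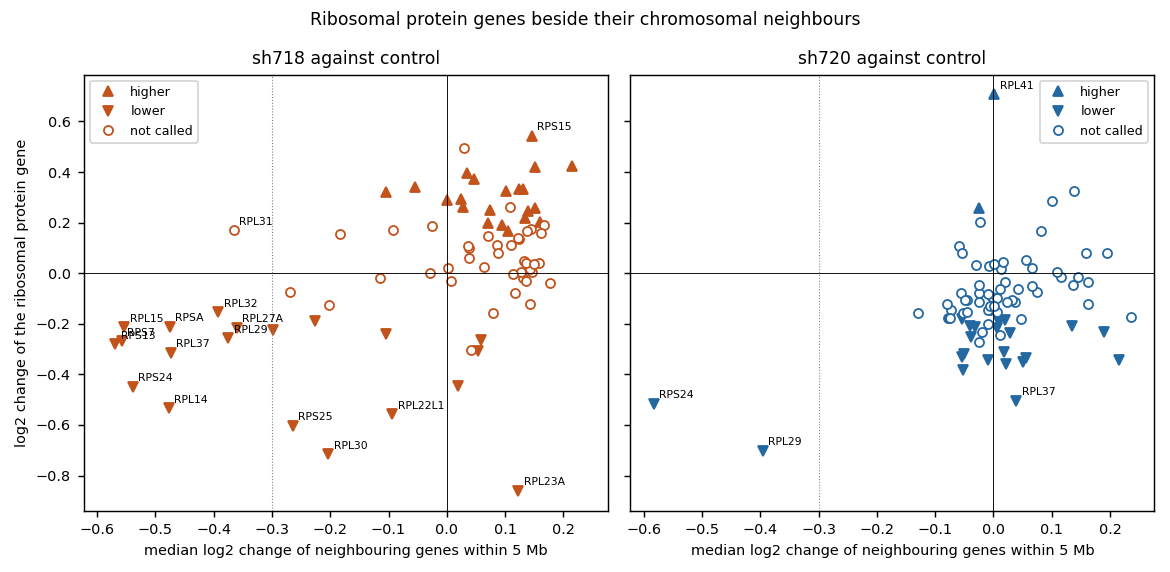
Log2 change of each tested gene (vertical) against the median log2 change of non-member genes within 5 Mb (horizontal), for sh718 and sh720 against control, with filled triangles for calls and open circles for genes not called. Left of the dotted line at -0.3 lie 11 genes in sh718, of which 10 are called lower, and 2 genes in sh720. RPL36A in sh720 lies off the axis and is not drawn.

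In the sh720 line, most of the called changes were falls. Of the 82 genes, 3 were called higher, 22 lower and 57 neither by edgeR, where 3.43% of all genes tested were called higher and 3.42% lower. Of the 70 with at least 2000 counts, 1.43% were higher and 30.0% lower, beside 10.7% and 16.1% of the 664 genes of that depth. The median change was -0.12, and -0.04 for those 664 genes. In 41 of 82 genes all sh720 libraries lay below all control libraries, and in 7 above them, where the shares over all genes tested were 11.9% and 11.6%. Such separation also depends on depth. Of the 70 with at least 2000 counts, 39 lay below and 4 above, beside 217 and 120 of the 664. The count of 22 fell to 12 without control library 2 and to 14 without sh720 library 3, and it was 14 when library totals replaced TMM scaling.

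The largest fall in sh720 was that of RPL29, a small basic protein of the large subunit also known as a heparin-binding protein. It was at 1247, 1171 and 1161 CPM in control, 1002, 1025 and 968 in sh718, and 762, 737 and 700.0 in sh720. The 3 lines did not overlap, and sh720 was the lowest, at a log2 change of -0.70 (SE 0.06, adjusted p 1.19e-13). RPL37, another protein of the large subunit, was at 1427, 1405 and 1321 CPM in control and 1019, 972 and 936 in sh720 (log2 -0.50, SE 0.07, adjusted p 1.75e-08). Its neighbours in sh720 had a median of 0.04.

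Further falls in sh720 covered both subunits. In the large subunit, RPL7A fell by 0.38 (SE 0.07, adjusted p 1.13e-05) and RPL12, at the base of the stalk that recruits elongation factors, by 0.36 (SE 0.06, adjusted p 8.71e-06). In the small subunit, RPSA, the protein also known as the laminin receptor precursor, fell by 0.35, RPS18 in the head by 0.34 and RPS2, near the mRNA entry, by 0.34. RPS6, the substrate of the S6 kinases, was at 1642, 1750.2 and 1625 CPM in control and 1511, 1476 and 1354 in sh720. All sh720 libraries were below control for RPS6, at a log2 change of -0.21 (SE 0.06, adjusted p 0.0204). That call was lost without control library 2 (adjusted p 0.139), without sh720 library 3 (0.138) and with library totals (0.0879).

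The 3 genes called higher in sh720 were RPL36A, RPL41 and RPL10A. RPL41 encodes the shortest ribosomal protein, and it had 85.6, 86.8 and 68.5 CPM in control, 75.4, 84.6 and 75.2 in sh718, and 127, 134 and 129 in sh720. Only the sh720 libraries stood apart, and the log2 change was 0.71 (SE 0.13, adjusted p 4.23e-05). RPL10A, part of the stalk through which spent tRNA leaves, was at 715, 734 and 771 CPM in control and 943, 859 and 856 in sh720 (log2 0.26, SE 0.08, adjusted p 0.031). DESeq2 did not call RPL10A (adjusted p 0.517), and the edgeR call was lost on leaving out any of the 6 control or sh720 libraries (0.0598 to 0.206).

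RPL36A, a protein of the tRNA exit site, showed by far the largest single change, and its pseudogene copies moved the other way. Its counts were 2, 6 and 5 in control, 6, 9 and 3 in sh718, and 63, 59 and 52 in sh720. The log2 change in sh720 was 3.65 (SE 0.31, adjusted p 3.44e-15), and in sh718 it was 0.49 (SE 0.52, adjusted p 0.554). However, 78.9% of the read-length windows of RPL36A occur in other annotated genes. These include a readthrough transcript with HNRNPH2, and 69.6% of all windows occur in a processed pseudogene on chromosome 11, AC116533.1 (16974693 to 16975013, minus strand), and 13.2% in another on chromosome 15, AC018868.1 (34943080 to 34943394, plus strand).

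AC116533.1 had 61, 66 and 64 counts in control, 41, 72 and 53 in sh718, and 23, 32 and 31 in sh720, for a log2 change of -1.20 in sh720 (SE 0.19). AC018868.1 had 14, 20 and 30 counts in control, 0, 1 and 2 in sh718, and 0 in each sh720 library. When RPL36A and the 8 copies that share windows with it were added up, the sums were 84, 96 and 105 in control, 51, 90 and 64 in sh718, and 92, 96 and 89 in sh720. In the sum, sh720 and control overlapped (log2 -0.10, SE 0.13, edgeR adjusted p 0.775), so the sh720 call ended, and sh718 was called lower (log2 -0.44, SE 0.14, adjusted p 0.0186). Adding copies was chosen after the values of these copies were seen. Its neighbours on the X chromosome did not share the rise: BTK had 1 count over the 9 libraries, and GLA, HNRNPH2 and TIMM8A were not called in sh720.

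**Figure D5:**
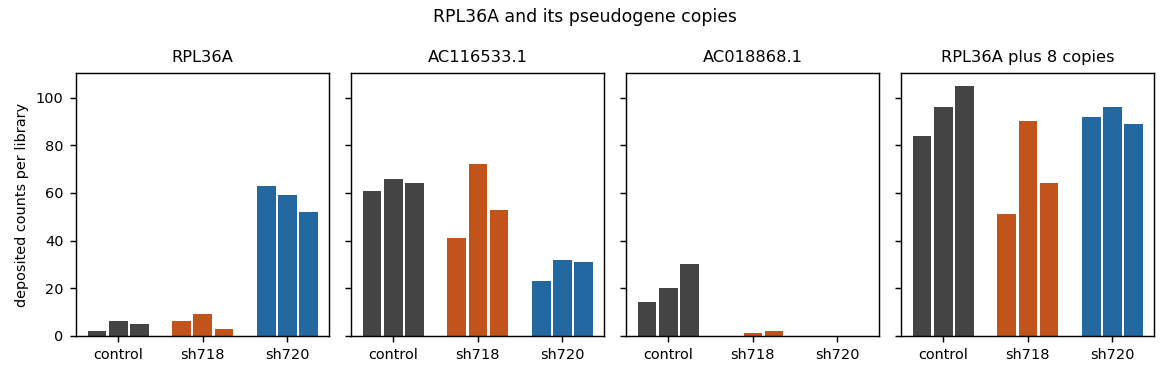
Deposited counts per library of RPL36A, of 2 processed pseudogenes that share read-length sequence with it, and of RPL36A with all 8 such copies, with 1 bar per library and a common axis from 0. In sh720 RPL36A is high (63, 59 and 52) where AC116533.1 is low (23, 32 and 31) and AC018868.1 is at 0, and the sums of control and sh720 overlap.

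The same addition was made for every tested gene that has such copies. RPL17, under the count minimum by itself, was not tested with copies added. With 7 copies it had 40, 36 and 42 counts in control, 30, 30 and 33 in sh718, and 42, 30 and 33 in sh720. With copies added, 22 genes were called higher and 21 lower in sh718, 2 and 20 in sh720, and 47 and 15 between the hairpin lines. Over all genes tested, without copies added, the shares were 9.56% and 10.8%, 3.43% and 3.42%, and 12.3% and 13%. In sh718 all 41 earlier calls were kept and RPL21 and RPL36A joined them. In sh720 the call was lost for RPL13A, RPL36A and RPS3A, and the other 22 were kept. Copies that themselves changed included AC073861.1, which shares 20.04% of the windows of RPS18 and went from 363 counts in control to 162 in sh718 and 115 in sh720. With its copy, RPS18 had a log2 change of -0.40 in sh720 in place of -0.34.

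Called changes in both hairpin lines against the shared control fell in the same direction for 5 genes, all downward. Of all genes tested 10.8% were called lower in sh718 and 3.42% in sh720, and at 2000 counts or more 22% and 16.1%. The share of all genes called in both lines is not given here, so the 5 are only a description. RPS24, whose mutation causes Diamond-Blackfan anaemia, was the deepest common fall of an abundant gene. It was at 7779.8, 7785 and 7401 CPM in control, 5605, 5730.4 and 5498 in sh718, and 5615, 5383 and 5062 in sh720. Both hairpin lines were below control and overlapped each other, with log2 changes of -0.45 (SE 0.06, adjusted p 1.31e-09) and -0.52 (SE 0.06, adjusted p 3.92e-11). RPL37 changed by -0.31 and -0.50, and RPL29 by -0.26 and -0.70. RPSA changed by -0.21 and -0.35, and its sh718 call was lost without sh718 library 3 (adjusted p 0.0604). RPS25 changed by -0.60 and -0.22, and its sh720 call was lost with DESeq2 (0.0652), with library totals (0.0867) and without each of 4 libraries in turn (0.0537 to 0.15).

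RPL18, RPL34 and RPS4X were called higher in sh718 and lower in sh720. The share of all genes with such opposite calls is not given here. RPS4X, the X-linked copy of a small subunit gene, was at 1573, 1737 and 1596 CPM in control, 2094, 2239.9 and 2110.1 in sh718, and 1395, 1445 and 1391 in sh720. The lines did not overlap, and the log2 changes were 0.39 (SE 0.06, adjusted p 3.38e-07) and -0.21 (SE 0.06, adjusted p 0.0169). RPL34 was at 716, 669.8 and 693 CPM in control, 904, 834 and 898 in sh718, and 639, 618 and 512 in sh720, with log2 changes of 0.34 and -0.23. RPL18 was at 1044, 1103 and 988 CPM in control, 1170.2, 1252 and 1289.8 in sh718, and 912, 868 and 852 in sh720, with log2 changes of 0.25 and -0.25.

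Set directly against each other, the hairpin lines differed by 0.61 for RPS4X, 0.58 for RPL34 and 0.50 for RPL18, differences that follow from choosing genes with opposite calls and are given as a description. The falls in sh720 were less secure than the rises. That of RPS4X was lost without control library 2 (adjusted p 0.155), without sh720 library 1 (0.0507) and with library totals (0.0869). That of RPL34 was lost on leaving out control library 1 (0.121), control library 3 (0.0802) or sh720 library 3 (0.32), with DESeq2 (0.141) and with library totals (0.0993). For RPL18 the sh720 call was lost without control library 2 (0.081) and the sh718 call without control library 3 (0.0528).

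Set directly against each other, the 2 hairpin lines differed over most of the family, with sh718 the higher. Of the 82 genes, 48 were called higher in sh718 than in sh720 and 16 lower, where 12.3% of all genes tested were called higher and 13% lower. Among genes with at least 2000 counts, 64.3% of 70 ribosomal protein genes were higher and 17.1% lower, beside 36.4% and 21.7% of 664. The median difference was 0.22, beside 0.09 for the 664. In 52 genes all sh718 libraries lay above all sh720 libraries and in 17 below, where the shares over all genes tested were 18.2% and 18.8%. At 2000 counts or more this held for 47 and 13 of the 70, beside 279 and 170 of the 664.

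RPS15, RPS4X, RPS14 and RPL34 gave the widest differences on the higher side, from 0.67 to 0.58. RPL10, RPS3A, RPL18, RPS2 and RPL29 lay between 0.51 and 0.45, though RPS3A was at 0.30 with its 8 copies added. On the lower side, beside RPL36A, stood RPL22L1 (-0.84), RPL23A (-0.83), RPL41 (-0.73), RPL14 (-0.55), RPL30 (-0.47), RPL39L (-0.41), RPS25 (-0.38) and RPS13 (-0.33). The RPL39L call was lost with DESeq2 (adjusted p 0.125) and by edgeR with a GC and length correction (0.064). It was also lost without sh718 library 3 (0.152) or sh720 library 1 (0.0994). Only 18 of the 82 genes missed the call. Scaling by library totals lowered the median difference to 0.15, where the median of all genes tested was -0.0756.

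By subunit, 12 of the 50 tested large subunit names were called higher and 12 lower in sh718, and 3 and 12 in sh720. Of the 32 small subunit names, 9 were higher and 8 lower in sh718, and 0 and 10 in sh720. All genes tested had 9.56% higher and 10.8% lower in sh718, and 3.43% and 3.42% in sh720. Those with at least 2000 counts had 29.1% and 22% in sh718, and 10.7% and 16.1% in sh720. DESeq2 also called 0 small subunit names higher in sh720, and 1 had an unadjusted edgeR p under 0.05. The median changes were 0.02 and 0.13 in sh718 for large and small subunit, and -0.11 and -0.13 in sh720. Neither subunit moved as a block in sh718, and whether the subunits differ was not tested.

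RPL5 and RPL11 bind 5S rRNA together and, off the ribosome, restrain MDM2. RPL11 was at 1739.7, 1729 and 1626 CPM in control, 1890.2, 2153 and 2042 in sh718, and 1637, 1656 and 1476 in sh720, and it rose in sh718 (log2 0.26, SE 0.06, adjusted p 0.00103). RPL5 had a log2 change of 0.10 in sh718 (adjusted p 0.268) and neither gene was called in sh720. Both were called higher in sh718 than in sh720, RPL5 by 0.20 and RPL11 by 0.35. The RPL5 call was lost with library totals (edgeR adjusted p 0.11) and without sh718 library 2 (0.104) or sh720 library 3 (0.0505).

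The stalk proteins RPLP0, RPLP1 and RPLP2 recruit elongation factors to the ribosome. RPLP0 was at 4035, 4124 and 3911 CPM in control, 3893, 4261 and 4081 in sh718, and 3814, 3729.5 and 3616 in sh720, and was called in neither line. RPLP1 and RPLP2, which pair with each other, went apart in sh718. RPLP1 rose from a mean of 2404 ± 45.5 CPM to 2880.1 ± 179 (SD, n = 3; log2 0.26, SE 0.06, adjusted p 0.000448), and RPLP2 fell from 2325 ± 127 to 1991 ± 13.8 (log2 -0.22, SE 0.06, adjusted p 0.00316). Neither was called in sh720. RPLP2 lies near the tip of chromosome 11 and its neighbours had a median of -0.298 in sh718, just short of the limit used above.

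Of 8 tested proteins at or around the exit tunnel, 2 rose (RPL35 and RPL26) and 2 fell (RPL23A and RPL4) in sh718, and 0 were called in sh720 by edgeR or DESeq2, with 1 higher and 2 lower at an unadjusted edgeR p under 0.05. The RPL26 call was lost with DESeq2 (adjusted p 0.08) and without each of 3 libraries in turn (0.0577 to 0.07). Of 18 tested genes mutated in Diamond-Blackfan anaemia, an inherited failure of red cell production, 8 rose and 4 fell in sh718. The shares over all genes tested were 9.56% and 10.8%, and 28.6% and 27.1% for ribosomal protein genes with at least 2000 counts. In sh720 3 of the 18 (16.7%) fell, where edgeR found 0 higher even at an unadjusted p under 0.05. The sh720 shares over all genes tested were 3.43% higher and 3.42% lower, and 10.7% and 16.1% at 2000 counts or more. Ribosomal protein genes of that depth had 1.43% and 30%. RPS19, the most often mutated of them, was at 1914, 2000.5 and 1799 CPM in control and 2188, 2219.8 and 2143 in sh718 (log2 0.20, SE 0.06, adjusted p 0.0103), a call lost without control library 3 (0.124).

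Calls were spread over genes with and without a tract at the listed start. Of 47 tested genes with a tract, sh718 had 14 higher and 11 lower, and sh720 had 2 higher and 13 lower. Of 19 with a listed start and no tract, sh718 had 4 higher and 5 lower, and sh720 had 1 higher and 4 lower. Among all genes tested 9.56% were higher and 10.8% lower in sh718, and 3.43% and 3.42% in sh720. The genes without a tract may include TOP mRNAs, because only the listed start was read. In RPL4 and RPL10A, for example, a run of C and T begins a few bases after it. The median changes were 0.06 and 0.00 in sh718, and -0.12 and -0.13 in sh720.

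Some names under the rule are paralogs or are not subunits. RPL22L1, RPS27L, RPL26L1, RPL39L and RPL36AL are close copies of RPL22, RPS27, RPL26, RPL39 and RPL36A, and RPL7L1 and RPS19BP1 encode nucleolar proteins that are not subunits. The coding sequences of these 5 copies match those of the parents at 70.6% (RPL22L1) to 94.8% (RPL39L) of aligned bases, and no pair shares a 75-base window. The starts of RPS27 (chr1:153990752-153990781, plus strand) and RPS27L (chr15:63157458-63157487, minus), and of RPL36AL (chr14:49620607-49620636, minus), are shown beside each other, with the tract in capitals. RPS27L has no tract where its parent has one. In RPL36AL a run of C and T begins before the listed start and spans it, so no tract was counted from that start.
RPS27: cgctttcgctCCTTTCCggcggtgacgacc
RPS27L: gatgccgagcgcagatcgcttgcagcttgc
RPL36AL: tcttccctttcctgttaggcgagagctgcg

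RPL36AL was steady within lines at 547, 514 and 523 CPM in control, 662, 655 and 659 in sh718, and 542, 529 and 535 in sh720. It rose in sh718 by 0.32 (SE 0.07, adjusted p 0.000392), and was not called in sh720, where its parent RPL36A had the rise that ended with copies added. RPL22L1 was at 38.3, 68.8 and 57.4 CPM in control and 30.6, 44.3 and 36.0 in sh718, so that the lines overlapped. Its log2 change was -0.56 (SE 0.19, adjusted p 0.0305), lost with DESeq2 (0.162), after removal of the trend over GC content and length (0.0948) and without each of 4 libraries in turn (0.0877 to 0.234). RPL22 itself was called in neither line. RPS27L, RPL26L1, RPL39L, RPL7L1 and RPS19BP1 were not called against control in either line.

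Ribosomal proteins outside the name rule gave 2 rises in sh718, among them RACK1, the scaffold on the small subunit head (0.28, SE 0.06). FAU had a log2 change of -0.14 (adjusted p 0.0893), and none of the 3 was called in sh720. Of 17 other tested genes with TOP mRNAs, 3 rose and 11 fell in sh718 with a median of -0.42. Over all genes tested 9.56% were higher and 10.8% lower, and at 2000 counts or more 29.1% and 22%. In sh720 0 rose and 5 fell with a median of -0.17, where 3.43% of all genes were higher and 3.42% lower, and 10.7% and 16.1% at 2000 counts or more. At an unadjusted edgeR p under 0.05 it was 0 and 11 in sh720, and by DESeq2 0 and 3. The tract stood at 12 of 15 of their listed starts.

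The elongation factor gene EEF1A1 fell by 1.38 in sh718 (SE 0.07, adjusted p 4.29e-26) and by 0.46 in sh720 (SE 0.07, adjusted p 1.6e-07), more than any ribosomal protein gene in sh718. IMPDH2, an enzyme of guanine nucleotide synthesis, fell by 0.80, EIF3E, an initiation factor subunit, by 0.68 and PABPC1, the poly(A)-binding protein, by 0.49 in sh718. Neighbour medians and pseudogene copies were not examined for EEF1A1 or these genes, and IMPDH2 lies within 5 Mb of RPL29 on chromosome 3. TPT1 and NACA rose there by 0.28 and 0.29. EEF2 was called at 0.20 (adjusted p 0.0429), a call lost with DESeq2 (0.155) and without each of 7 libraries in turn (0.0539 to 0.323).

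Calls among genes of growth control are given only as a description. Several of these genes were weakly counted over the 9 libraries, among them MTOR (276 counts), MLST8 (148), TSC1 (145) and TSC2 (143). Of 12 tested genes around mTORC1 and LARP1, 0 were called higher and 1 (8.33%) lower in each line against control. The shares of all genes called higher and lower were 9.56% and 10.8% in sh718 and 3.43% and 3.42% in sh720. By DESeq2 0 were higher in either line, and 2 in each line were higher at an unadjusted edgeR p under 0.05. MYC fell in sh718 (log2 -0.59, SE 0.11, adjusted p 3.8e-05) and EIF4EBP2, a translation repressor, was called lower in sh720 (log2 -0.44, SE 0.14, adjusted p 0.0439). The EIF4EBP2 call was lost with DESeq2 (0.213), with library totals (0.0879) and without each of 5 libraries in turn (0.0509 to 0.247). MTOR (log2 -0.38 in sh718 and -0.59 in sh720), LARP1 and RPS6KB1 were called in neither line. RPTOR, a subunit of mTORC1 with 69 counts over the 9 libraries, had log2 changes of 0.94 (SE 0.40, adjusted p 0.0873) and -0.14. Between the hairpin lines, sh718 was higher for RPTOR (1.07, adjusted p 0.0416) and EIF4EBP2 (0.75) and lower for MYC (-0.33). The RPTOR call was lost with DESeq2 (0.208), with library totals (0.0606) and without each of 5 libraries in turn (0.0577 to 0.147). The MYC call between the hairpin lines was lost with DESeq2 (0.117) and by edgeR with no count minimum (0.0546). Leaving out each of 3 libraries in turn also lost it (0.0652 to 0.0971). Of 11 chaperones and importers of ribosomal proteins, TSR2, the chaperone of RPS26, rose in sh718 (log2 0.59, SE 0.18, adjusted p 0.00966), where its client rose by 0.33. The TSR2 call was lost with DESeq2 (0.0977) and without control library 3 (0.12) or sh718 library 2 (0.0527). PDCD2L and IPO7 fell in sh718 by 0.93 and 0.44. In sh718 9.09% of the 11 were thus higher and 18.2% lower, beside 9.56% and 10.8% of all genes. In sh720 0 of the 11 were called by edgeR or DESeq2, with 1 at an unadjusted edgeR p under 0.05. The shares of all genes there were 3.43% and 3.42%. The PDCD2L call was lost with DESeq2 (0.114) and without each of 3 libraries in turn (0.0669 to 0.125).

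Of 284 rows named as ribosomal protein pseudogenes, 40 were deep enough to test, and all 284 held 18474 counts, or 1.90% of those of the 85 genes. In sh718 5 rose and 5 fell (12.5% each way, beside 9.56% and 10.8% of all genes tested). In sh720 1 rose and 1 fell (2.5% each way, beside 3.43% and 3.42%). RPS2P5, RPL10P3 and RPL5P34 are named after their values were seen. RPS2P5 was at 157, 143 and 159 counts in control, 62, 70 and 61 in sh718, and 156, 134 and 121 in sh720 (log2 -1.21 in sh718, SE 0.13, adjusted p 3.66e-11). The gene RPS2 was called in sh718 neither with its copies added nor without them. RPL10P3 changed by -2.56 and RPL5P34 by 2.29 in sh718, and neither was called in sh720.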

How the data were processed

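RNA-seq of the 3 lines was deposited as 1 table of gene counts with 3 library columns per line. Trim Galore and the build GRCh38 appear in the list of tools and builds, per the submitters' processing notes. The sources used here give no aligner, counter, strand setting or gene models. The counts were used as the authors deposited them.

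Genes with at least 60 counts over the 9 libraries (9556) were fitted with edgeR 4.0.16 in R 4.3.3, with TMM scaling, 1 model over the 3 lines and a quasi-likelihood test per comparison. P-values were adjusted by Benjamini-Hochberg over all 9556 genes, with a call under 0.05. The scripts were tested on simulated data. Standard errors are of the log2 change, and CPM are scaled by TMM. Alternatives were DESeq2 1.42.0, other scalings, no count minimum, a GC and length correction, a replicate block, and each library left out. Positions, lengths and shared windows are from GENCODE v29, and starts from RefSeq.

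Genes named were, per comparison, up to 8 called higher and 8 lower, in order of how far from 0 the nearer 95% limit lay. Added to these were genes called in both lines or in opposite directions, the 5 highest and 5 lowest levels in control, RPLP0, RPLP1, RPLP2, RPSA, RPL5, RPL11, RPS19 and RPS6, paralogs with their parents, genes under the count minimum, and up to 3 per direction of each related list. Some genes that this rule names are not reported here. The genes and lists were chosen with earlier results of these data known. The copy sums, the comparison with genes of at least 2000 counts and the shortest principal length were chosen after seeing the data.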

Additional observations from a re-analysis of the deposited data

Results flagged for a closer look

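For 3 ribosomal protein genes the 2 hairpin lines were called in opposite directions against the shared control. The difference, sh718 minus sh720, was 0.607 on the log2 scale for RPS4X, 0.576 for RPL34 and 0.497 for RPL18. Opposite calls against 1 control fix the direction of this difference, so it is a description and not separate support. The falls in sh720 were each lost on leaving out at least 1 library.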

How the results depend on the processing

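DESeq2 called 447 genes higher and 560 lower over all genes in sh718, 132 and 166 in sh720, and 632 and 661 between the hairpin lines, against 914 and 1033, 328 and 327, and 1173 and 1246 by edgeR. For the ribosomal protein genes it called 18 and 16, 2 and 17, and 45 and 13. Scaling by library totals gave 14 lower ribosomal protein genes in sh720 (main 22) and medians of -0.0759 in sh720 (main -0.121) and 0.145 between the hairpin lines (main 0.219). In sh720, 3 related genes were called both with library totals and with DESeq2 (main 6). The GC and length correction gave an sh718 median of 0.0783 (main 0.0439). Without mitochondrial counts the mean share was 13.5% in control libraries, 13.3% for sh718 and 12.3% for sh720. The median control level of 351 CPM per kb became 683 with the longest and 1554 with the shortest principal transcript. With copies added, RPL36A reversed to -0.44 in sh718 and to -0.10 in sh720. The cause of these shifts was not tested.

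With a single library left out, ribosomal protein genes called higher and lower ranged over 16 to 23 and 16 to 20 in sh718, 2 to 3 and 12 to 23 in sh720, and 41 to 48 and 13 to 16 between the hairpin lines. Their medians ranged over 0.0212 to 0.0745, -0.148 to -0.102, and 0.196 to 0.236. Over all genes the calls were 639 to 875 higher and 823 to 1037 lower in sh718, 216 to 358 and 241 to 354 in sh720, and 906 to 1161 and 998 to 1244 between the hairpin lines. Related genes called were 16 to 19, 3 to 7, and 13 to 18. Mean shares were 11.3% to 11.6% in control, 11.2% to 11.5% in sh718 and 10.6% to 10.7% in sh720. The 216 came without sh720 library 2.

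Same-numbered libraries deviated from their line means with correlations between -0.0127 and 0.0219, so the numbers were not taken to pair the libraries. With a replicate block, 25 ribosomal protein genes were called higher and 20 lower in sh718, 4 and 23 in sh720, and 48 and 17 between the hairpin lines. Of 3873 values of single genes under the alternatives, 3718 kept direction and call, 132 lost the call, 21 gained it and 2 reversed. Library totals of 883663 to 1108960 counts limit the precision for weakly counted genes: the SE of RPL22L1 in sh718 was 0.19, and that of RPS24 was 0.06.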
